A study of Homo sapiens with 12 samples.

Results

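LNCaP cells that had lost Bag-1L were compared with control cells while both grew in full medium (FM), without hormone starvation. LNCaP is an established human cell line derived from prostate cancer, and androgen changes its transcription. The comparison used the 2 Bag-1L KO and the 2 control (Ctr) libraries labelled FM, which are 4 of the 12 RNA-seq libraries of the study. Ctr_FM is the LNCaP TALEN control line in RPMI medium with fetal bovine serum, and KO_FM is the LNCaP TALEN Bag-1L knockout line in the same medium. The other 8 libraries came from the same lines after 72 h in hormone-stripped medium and 16 h with ethanol (EtOH) or 10 nM dihydrotestosterone (DHT), with 2 libraries per line and treatment. They shared the low-count filter and the estimate of spread with the FM libraries in 1 model, defined the genes that respond to DHT, and served to ask where the FM values differed. The paper describes single clones picked by western blot for loss of Bag-1L, without saying how many gave the KO line. An effect of picking clones and an effect of the lost protein therefore cannot be told apart. The standard errors (SE) and p-values below rest on 1 estimate of spread over all 12 libraries of these 2 lines, the starved ones included. They do not measure the spread between clones. The study asked whether loss of Bag-1L changes transcription that depends on androgen.

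BAG1 makes several protein forms from a single messenger RNA by starting translation at different codons. All of them carry the BAG domain, which binds the ATPase domain of HSP70 and speeds the release of its nucleotide. Bag-1L, the longest form, starts at an upstream CTG, carries a nuclear localisation signal in its extra N-terminal part and is known to act in androgen signalling. The TALEN pair was aimed at that CTG, and the start codons of the shorter forms were left in place.

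The annotated start sites show what the editing was aimed at. In the reference annotation (GENCODE v44 on GRCh37) BAG1 (ENSG00000107262) lies on chromosome 9 from 33247818 to 33264718 on the minus strand. The Bag-1L transcript BAG1-210 has 345 codons, and its first coding exon runs from 33264222 to 33264672. The next annotated start codon, an ATG, lies 345 bases downstream in the same frame and the same exon, 115 codons after the CTG. The reference sequence of both starts is given 5′ to 3′ on the coding strand, with the start codon in capitals. The first stretch is chr9:33264568-33264672 and the second is chr9:33264313-33264339.
Bag-1L start: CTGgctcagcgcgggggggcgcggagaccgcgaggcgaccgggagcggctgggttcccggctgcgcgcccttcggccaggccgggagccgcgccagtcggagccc
next start: cagggcgaagagATGaatcggagccag

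The counts cover the whole gene and do not separate these starts, so BAG1 counts do not check the removal of the CTG. The normalized count of BAG1 (counts divided by the DESeq2 size factor of the library) was 2117.0 and 1967.7 in Ctr and 1452.2 and 1576.1 in KO. The groups did not overlap, and the log2 fold change was -0.43 with an SE of 0.18 (DESeq2 adjusted p = 0.0682), which did not pass the threshold used here of an adjusted p of at most 0.05 together with a fold change of at least 1.5. With a GC correction, described below, the value was -0.40. In a fit of the 4 FM libraries alone it was -0.42 (DESeq2 adjusted p = 3.73e-06), still under the fold minimum, so the p-value depends on the libraries that give the spread. In the starved cells the KO libraries were lower by more, with a log2 fold change of -0.94 in EtOH and -1.14 in DHT, both past the threshold, which 5.11% and 7.98% of genes tested passed there. The difference of the FM effect from these did not pass its own test (0.51 from EtOH and 0.71 from DHT).

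FM libraries held between 22474837 and 26510205 counts in genes, at which 3 counts correspond to 0.113 to 0.133 CPM (a count scaled to the total of its library). Replicates lay close together, with a median absolute log2 difference of 0.0837 in Ctr FM and 0.0765 in KO FM, against 0.238 in Ctr EtOH, where the replicates were farthest apart. All 10 luminal prostate markers averaged 100 normalized counts or more, and their summed level was between 100085.0 and 106094.0 in the 4 libraries. The 6 neuroendocrine markers summed to 50.6 to 68.5 in Ctr and 83.9 to 88.8 in KO with INSM1 at 0 throughout, the 5 basal markers to 28.2 to 29.8 and 64.4 to 89.9, the 8 stromal markers to 1348.1 to 1409.1 and 1086.6 to 1090.5 with CDH2 at 0, and the 6 blood markers to 28.2 to 30.9 and 13.2 to 16.8. The part of these small marker levels in the results below was not tested, and in bulk RNA fewer cells of a type and less RNA per cell cannot be told apart.

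In FM 1202 of 15000 tested genes passed the threshold between KO and Ctr (8.01% of genes tested). Of these, 812 were higher in KO (5.41%) and 390 were lower (2.6%). The median absolute log2 fold change of these genes was 0.86. A change of at least 4-fold was reached by 62 genes, 39 higher and 23 lower.

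The direction of the change followed the base composition of the transcripts. Across 14511 tested genes with a known transcript, the log2 fold change in FM rose with GC content (Spearman correlation 0.50 across genes, which are not independent replicates). In the fifth of genes with the lowest GC content the median log2 fold change was -0.22, and 43 genes were higher and 142 lower in KO. In the fifth with the highest GC content the median was 0.32, and 452 genes were higher and 24 lower. Genes higher in KO had a median GC content of 60.0% and genes lower in KO one of 42.3%, against 48.5% over all genes tested. The same KO against Ctr comparison in the starved cells showed little of this gradient, with a correlation of 0.09 in EtOH and 0.11 in DHT. The gradient sat in the individual libraries: the correlation of GC content with the deviation of a library from the mean of all 12 libraries was -0.43 and -0.57 in the Ctr FM libraries and -0.07 and 0.03 in the KO FM libraries, whereas the 8 starved libraries ranged from -0.21 to 0.57. Because both Ctr FM libraries lay below both KO FM libraries, a gradient from library preparation and one from the cells cannot be told apart here.

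A correction for GC content was therefore also fitted. It removed a smooth trend with GC content from each library before the fit, and left a correlation of -0.01. With it 785 genes passed (5.06% of genes tested), 516 higher (3.33%) and 269 lower (1.73%). Without and with the correction alike, 628 genes passed (4.19%), 405 higher (2.7%) and 223 lower (1.49%), which is 52.2% of the uncorrected calls. The log2 fold change in FM also fell with transcript length (Spearman correlation -0.32 across genes). That correlation was -0.22 with the GC correction, and 0.12 in EtOH and 0.19 in DHT. The trend with length was not itself corrected, and its cause was not tested. The GC correction would also remove any true change that follows GC content, so calls are given without it first, and each named gene whose call ended with it is given as such. Among the members of the gene lists below, 8 passed only with the correction and were named after their values were seen. These were ACP3 (0.69), EPHA4 (1.26), TP53INP1 (0.61), CENPN (0.61) and SMAD9 (0.60), higher in KO on the log2 scale, and FASN (-0.64), SLC43A1 (-0.59) and CHAC1 (-0.59), lower.

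**Figure D1:**
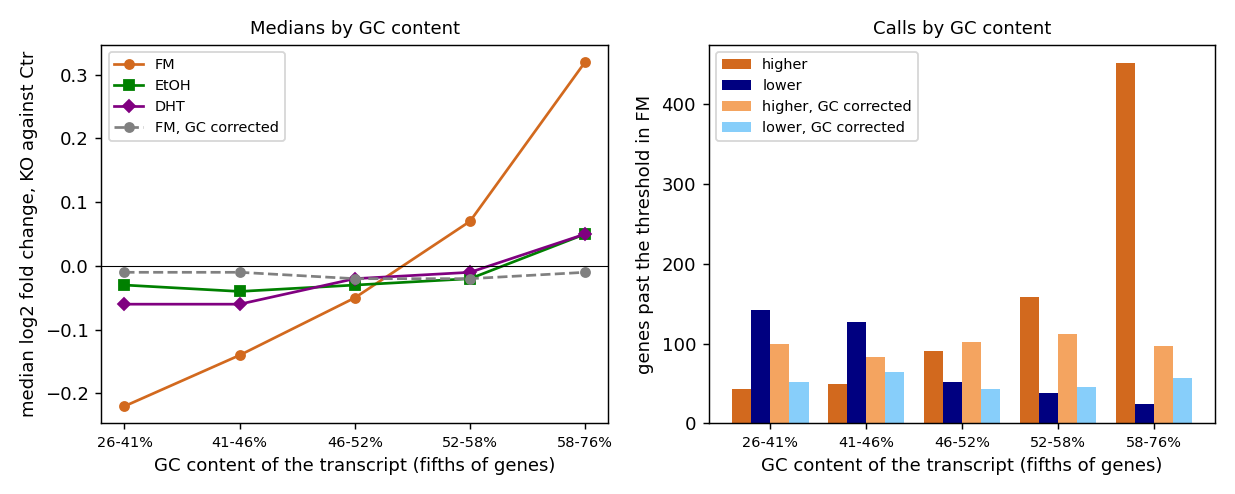
KO against Ctr by GC content of the transcript, in 5 equal groups of genes on the horizontal axis. Left, the median log2 fold change in FM, EtOH and DHT, and in FM with GC correction. Right, the number of genes past the threshold in FM, higher and lower in KO, without and with the correction. Only the uncorrected FM line climbs steeply, from -0.22 to 0.32, and 452 of the uncorrected higher calls lie in the group with the highest GC content.

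The coding starts of 4 genes at the extremes of transcript composition are shown. Of the 24 genes with the largest changes in FM, CACNA1H and SLC16A3 have the protein-coding transcripts richest in GC (66.1% and 64.7%) and both were higher in KO, and PLOD2 and RND3 have the poorest (37.7% and 39.3%) and both were lower. The order was not strict, since EPHA3 (40.2%) was higher and HS3ST4 (58.9%), SLC6A3 (58.5%) and CSPG4P11 (60.3%) were lower. Their first 120 coding bases are shown with G and C in capitals. G and C make up 83.3% of the stretch in CACNA1H, 68.3% in SLC16A3, 60.0% in PLOD2 and 45.0% in RND3. The stretch thus differs from the whole transcript, and that of PLOD2 is not poor in GC.
CACNA1H: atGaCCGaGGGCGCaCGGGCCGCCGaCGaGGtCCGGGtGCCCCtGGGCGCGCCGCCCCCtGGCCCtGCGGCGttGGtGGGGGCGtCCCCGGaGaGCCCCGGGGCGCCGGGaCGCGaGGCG
SLC16A3: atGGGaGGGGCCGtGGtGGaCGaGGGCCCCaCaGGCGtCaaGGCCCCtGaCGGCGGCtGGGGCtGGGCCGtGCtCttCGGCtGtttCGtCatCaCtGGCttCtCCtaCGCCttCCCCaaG
PLOD2: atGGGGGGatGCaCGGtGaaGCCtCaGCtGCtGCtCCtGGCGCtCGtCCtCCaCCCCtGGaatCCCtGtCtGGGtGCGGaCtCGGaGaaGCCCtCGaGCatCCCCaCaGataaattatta
RND3: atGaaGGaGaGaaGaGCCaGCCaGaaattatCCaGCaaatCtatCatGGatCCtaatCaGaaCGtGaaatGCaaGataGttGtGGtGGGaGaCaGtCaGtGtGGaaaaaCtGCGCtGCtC

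The 12 largest rises included enzymes, receptors and channels. CYP11A1, the mitochondrial enzyme that turns cholesterol into pregnenolone at the start of steroid synthesis, had a normalized count of 24.3 and 37.9 in Ctr and of 338.6 and 320.0 in KO. It rose 10.5-fold (log2 fold change 3.39, SE 0.30, DESeq2 adjusted p = 5.93e-27), and 27.0% of its exon bases overlap a gene on the opposite strand. CACNA1H, the pore subunit of a T-type calcium channel, was at 82.8 and 80.7 in Ctr and at 525.1 and 607.2 in KO. Its log2 fold change of 2.79 (SE 0.20, adjusted p = 2.46e-42) was 2.28 with GC correction. MYD88, the adaptor that carries the signal of Toll-like and interleukin-1 receptors, was counted at 128.1 and 108.9 in Ctr and at 810.5 and 803.4 in KO. It rose 6.83-fold (log2 2.77, SE 0.16, adjusted p = 6.19e-62), and nearly as much with the correction (2.73). EPHA3, a receptor tyrosine kinase for ephrins, was already at 651.6 and 613.8 in Ctr and reached 3757.9 and 3382.3 in KO, a log2 fold change of 2.50 (SE 0.14, adjusted p = 3.91e-69). As its transcript is poor in GC (40.2%), its corrected value of 2.69 was larger. For these genes each KO library lay several fold above each Ctr library.

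The other 8 of the largest rises ranged from a log2 fold change of 1.88 to 2.57. NHSL1, a regulator of actin at the cell edge, went from 568.7 and 512.6 in Ctr to 3306.4 and 3106.1 in KO (log2 2.57). SLC16A3, which exports lactate from the cell, went from 165.7 and 134.2 to 626.8 and 658.7 (2.10, or 1.66 with GC correction). GPER1, a G protein-coupled receptor for estrogen, was at 46.4 and 47.7 in Ctr and at 184.7 and 185.2 in KO. The rest were SDR9C7, a short-chain dehydrogenase (2.26), EBF2, a transcription factor known from brown fat (1.97), NICN1, a tubulin polyglutamylase subunit (1.93), PRRT2, a synaptic protein (1.89), and SPOCK2, a secreted proteoglycan (1.88). All 12 rises remained past the threshold with GC correction. Reads of NICN1 and PRRT2 are uncertain, since 99.7% and 37.0% of their exon bases overlap another gene on the same strand in the annotation used.

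The largest fall was that of ALDH1A1, a retinaldehyde dehydrogenase that makes retinoic acid and serves as a marker of progenitor cells in many tissues. Its normalized count was 1900.6 and 1979.4 in Ctr and 95.1 and 101.9 in KO, a 19.7-fold fall (log2 fold change -4.30, SE 0.17, adjusted p = 5.23e-136), or -4.14 with GC correction. PLOD2, which hydroxylates collagen lysines before crosslinking, was at 650.5 and 729.5 in Ctr and at 75.5 and 72.3 in KO (-3.22, SE 0.21, adjusted p = 2.87e-52). ATP1B1, the beta subunit of the sodium pump, was the most abundant of the 12, at 5251.1 and 5504.4 in Ctr and at 1238.6 and 1290.0 in KO (-2.09, SE 0.11, adjusted p = 1.61e-83). The KO and Ctr libraries of these 3 genes were far apart compared with their replicates.

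Among the remaining falls were genes of the cell cortex and of secretion. PHLDB2, which anchors microtubules at the cortex, was at 932.1 and 1046.6 in Ctr and at 216.4 and 207.1 in KO (log2 -2.22). CADPS2, which primes dense-core vesicles for release, went from 922.1 and 984.4 to 208.0 and 196.2 (-2.24). RND3, a small GTPase that loosens actin stress fibres, went from 382.1 and 399.8 to 87.7 and 93.2 (-2.11, or -1.91 with GC correction). The others were the dopamine transporter SLC6A3 (-2.20), the heparan sulfate sulfotransferase HS3ST4 (-2.13), the scavenger receptor CD163L1 (-2.08), the RNA-binding protein RALYL (-2.06), CSPG4P11 (-1.96) and the zinc finger protein ZNF516 (-1.87). All 12 falls remained past the threshold with GC correction. CSPG4P11 is a pseudogene that shares 73.1% of its 50-base words with other transcripts, so its counts are uncertain.

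**Figure D2:**
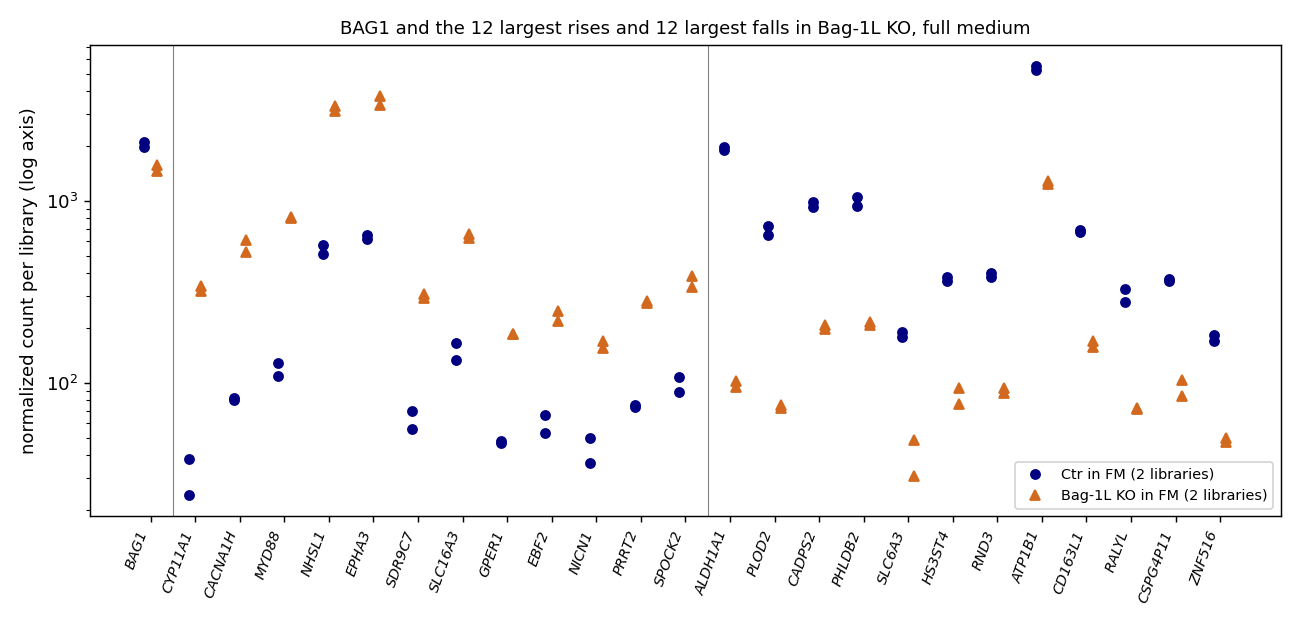
Normalized count in each FM library (log axis) for BAG1 and for the 12 largest rises and 12 largest falls in Bag-1L KO. Circles are the 2 Ctr libraries and triangles the 2 KO libraries. The rises and falls were chosen to have the KO pair wholly above or wholly below the Ctr pair, and the pairs of BAG1 are apart too. BAG1 is the gene with the smallest gap, and ALDH1A1, at 1900.6 and 1979.4 in Ctr against 95.1 and 101.9 in KO, has the widest.

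No member of the BAG family passed the threshold in FM (0 of 6 tested, 2 of them with an unadjusted p under 0.05, and 0 by edgeR, which called 5.33% of all genes), and the median log2 fold change was 0.02 against -0.01 over all genes tested. BAG5 was at 2699.0 and 2833.4 in Ctr and at 2262.7 and 2116.4 in KO (log2 -0.34). BAG6, the most abundant member, was at 6588.5 and 6108.5 in Ctr and at 6778.9 and 6474.2 in KO, where the libraries overlapped and the sign turned with the correction (0.06, or -0.18 with GC correction). Of 22 tested HSP70 and HSP90 chaperones and partners only the small heat shock protein HSPB1 passed, going from 4143.5 and 3767.2 in Ctr to 6636.2 and 7042.0 in KO (log2 0.79, adjusted p = 0.00314). It lost the call with GC correction (0.32, adjusted p = 0.168), with edgeR (adjusted p = 0.0776), without Ctr FM replicate 2 (adjusted p = 0.0985) and without KO FM replicate 2 (adjusted p = 0.0785).

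Genes known to be induced by androgen moved in both directions in FM. Of 27 tested members of a list of 30, 6 were higher in KO, 3 were lower and 18 did not pass, with a median log2 fold change of 0.03. Of all genes tested 5.41% were higher and 2.6% lower, and these shares are the background for the counts of this and the following lists. The lists were chosen with earlier results of these data known, so a share above the background is a description and not an independent result. KLK3, which encodes prostate-specific antigen, was at 10398.4 and 10173.3 in Ctr and at 20127.8 and 23182.0 in KO (log2 1.07, SE 0.13, adjusted p = 8.20e-14). TRPM8, a cold-sensing cation channel, went from 808.4 and 811.2 to 1877.5 and 1812.8 (1.19). TMPRSS2, a surface serine protease, went from 3745.9 and 3756.5 to 6266.9 and 7050.7 (0.83). These 3 rises held with GC correction, and so did those of KLK2, PMEPA1 and TPD52, named here after their values were seen (0.71, 0.67 and 0.65).

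The 3 lower members were the transcription factor MAF, the elongation factor ELL2 and the acyl-CoA synthetase ACSL3. MAF was at 5148.4 and 6151.3 in Ctr and at 2730.0 and 2868.3 in KO (log2 -1.01, or -1.31 with GC correction). ELL2 went from 7886.1 and 8753.2 to 5042.2 and 5321.2 (-0.68), and ACSL3, the most abundant of the list, from 57252.1 and 61059.3 to 38098.3 and 40022.4 (-0.60). The calls of ELL2 and ACSL3 ended with GC correction, at -0.48 and -0.39, where the fold change fell under the minimum. That of ACSL3 also ended with edgeR, with TMM size factors, with a minimum of 10 counts per FM library (-0.58 each), without Ctr FM replicate 2 (-0.55) and without KO FM replicate 1 (-0.57).

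Of the luminal identity genes none passed the threshold in FM (0 of 15 tested, 7 with an unadjusted p under 0.05, and 0 by edgeR), with log2 fold changes from -0.53 to 0.56 and a median of 0.12. With GC correction 1 of them, ACP3, passed. KRT8, a luminal keratin, was at 15945.5 and 15561.0 in Ctr and at 19472.1 and 22537.5 in KO (log2 0.42, adjusted p = 0.0394, under the fold minimum), and 39.0% of its 50-base words are shared with other transcripts.

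The androgen response was also read from the starved Ctr libraries, none of which is an FM library, although the single model takes its estimate of spread from all 12. DHT raised 1059 genes in Ctr relative to EtOH (6.04% of genes tested), and 1016 of these were tested in FM. In FM 76 of them (7.48%) were higher and 74 (7.28%) lower in KO, with a median log2 fold change of -0.03, against 5.41% and 2.6% of all genes. DHT lowered 942 genes (5.37%), of which 906 were tested in FM. Of these 134 (14.8%) were higher and 57 (6.29%) lower in KO, with a median of 0.07. With GC correction the counts were 69 and 63 for the raised genes and 104 and 42 for the lowered genes. In both sets the share of genes called was above that of all genes. The sets had passed the same limits in the same model, so they are not a neutral sample of all genes. A link of the higher share to androgen was not tested.

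Enzymes of steroid and retinoid metabolism were among the genes with the largest changes. Of 18 tested genes of androgen synthesis and inactivation 2 were higher and 1 was lower in KO (median log2 0.08). Beside CYP11A1, HSD17B6, which converts androstanediol back towards active androgen, was at 77.3 and 83.7 in Ctr and at 159.5 and 175.4 in KO (1.05), and it was no longer called without KO FM replicate 2 (adjusted p = 0.0844). UGT2B11, of the family that inactivates steroids by glucuronidation, went from 3105.4 and 3573.6 to 1690.1 and 2007.9 (-0.85), and it shares 42.5% of its 50-base words with other transcripts.

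Among 14 retinoid genes tested 3 were higher and 1, ALDH1A1, was lower (median 0.15, or -0.06 with GC correction). ALDH1A3, which makes retinoic acid like ALDH1A1, moved the other way, from 366.6 and 387.1 in Ctr to 698.6 and 713.5 in KO (log2 0.90). The retinol dehydrogenase RDH16 went from 139.1 and 123.5 to 259.3 and 302.5 (1.10). RDH11, a retinaldehyde reductase, went from 4595.1 and 4932.5 to 7441.1 and 7736.8 (0.67). All 4 retinoid calls held with GC correction.

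Eph receptors and ephrins, the cell contact pair of receptors and membrane ligands, had 4 members higher and 1 lower among 19 tested, with a median log2 fold change of 0.24 that fell to 0.03 with GC correction. Their transcripts have a median GC content of 59.0%. The ligand EFNA5 was at 5694.0 and 5605.6 in Ctr and at 12964.6 and 12056.3 in KO (1.15, or 1.28 with GC correction). EPHB6, a receptor without kinase activity, went from 79.5 and 65.2 to 240.6 and 226.9 (1.7, or 1.38). EPHA7 was at 263.9 and 311.3 in Ctr and at 166.0 and 180.8 in KO (-0.73, adjusted p = 0.00111). The EPHA7 call ended with GC correction (-0.52), without Ctr FM replicate 2 (adjusted p = 0.142) and without KO FM replicate 1 (adjusted p = 0.0792).

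Of 28 semaphorin, netrin and slit genes tested 3 were higher and 3 lower (median 0.02, or -0.18 with GC correction). The ligand SEMA3F went from 662.6 and 611.8 in Ctr to 1193.9 and 1212.2 in KO (0.92), and the coreceptor NRP1 from 913.3 and 977.5 to 491.5 and 463.6 (-0.98), both also past the threshold with GC correction. The receptor ROBO1 fell by 0.73 on the log2 scale and the receptor PLXNA2 by 1.03. PLXNA2 was no longer called without Ctr FM replicate 1 (adjusted p = 0.205) or KO FM replicate 2 (adjusted p = 0.356), nor ROBO1 without Ctr FM replicate 2 (adjusted p = 0.0954) or KO FM replicate 2 (adjusted p = 0.119). SEMA3B (0.79) and PLXNB3 (0.82) lost their calls with GC correction (0.38 and 0.37), and SEMA3B also without KO FM replicate 2 (adjusted p = 0.0509).

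Of 12 integrin subunits tested none was higher and 2 were lower (median log2 -0.16). ITGA2, which pairs with beta 1 as a collagen receptor, was at 714.5 and 730.5 in Ctr and at 450.5 and 355.1 in KO (-0.84). It was no longer called without Ctr FM replicate 2 (adjusted p = 0.0685) or KO FM replicate 2 (adjusted p = 0.138). ITGA6, a laminin receptor subunit, went from 1120.9 and 1211.0 to 710.7 and 737.6 (-0.69), and its corrected value of -0.54 lay under the fold minimum.

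Of 19 tested genes of Toll-like receptor and NF-kB signalling 2 were higher in KO, MYD88 and TICAM1, and none was lower. TICAM1, the adaptor of TLR3, was at 278.3 and 292.8 in Ctr and at 442.1 and 430.7 in KO (log2 0.61), and lost its call with GC correction (0.24) and without any one of the 4 FM libraries (adjusted p from 0.105 to 0.113). Of 25 interferon and antigen presentation genes 3 were higher and 2 lower (median -0.04). The higher ones were the membrane proteins IFITM1, IFITM2 and IFITM3, which restrict virus entry, and IFITM3, the most abundant, went from 596.3 and 564.2 to 1166.8 and 1114.7 (0.98).

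Other interferon genes were nearer to the threshold. IFITM1 was at 39.8 and 44.7 in Ctr and at 96.1 and 80.0 in KO (1.06), and IFITM2 was at 48.6 and 63.2 and at 132.4 and 130.4 (1.23). IFITM1 lost its call without any one of the 4 libraries (adjusted p from 0.0774 to 0.179), and IFITM2 lost its call without Ctr FM replicate 1 (adjusted p = 0.079), KO FM replicate 1 (adjusted p = 0.0623) or KO FM replicate 2 (adjusted p = 0.0717). IFITM1 shares 55.1% of its 50-base words with other transcripts, so its reads may be split with its neighbours. OAS3, a sensor of double-stranded RNA, went from 477.1 and 480.5 to 311.5 and 272.9 (-0.71). It was not called without Ctr FM replicate 2 (adjusted p = 0.0752) or KO FM replicate 2 (adjusted p = 0.125).

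Proliferation genes did not pass in FM. None of 25 tested genes of G1/S and DNA replication passed (9 with an unadjusted p under 0.05, and 0 by edgeR), and 22 of them had a negative log2 fold change (median -0.15). None of 24 genes of G2/M and mitosis passed either (9 with an unadjusted p under 0.05, and 0 by edgeR), 17 of them negative (median -0.10, or -0.03 with GC correction). MCM7, a subunit of the replicative helicase, was at 10451.4 and 10059.5 in Ctr and at 8815.9 and 9167.1 in KO (-0.19). RRM2, which supplies deoxynucleotides, was at 8175.4 and 8660.8 and at 7922.4 and 7209.6 (-0.15, or 0.01 with GC correction). The mitotic kinase CDK1 was at 14414.9 and 15485.1 and at 12768.8 and 12464.0 (-0.24), and its partner CCNB1 at 8901.0 and 8611.2 and at 8207.8 and 7939.6 (-0.12, or 0.04 with GC correction). In the simulated data, 82% of genes changed 2-fold and 100% of genes changed 4-fold were recovered in this comparison. Smaller changes and a trend with GC content were not simulated.

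HMGCS1, an enzyme of cholesterol synthesis that condenses acetyl units, was at 14696.5 and 15575.6 in Ctr and at 5780.0 and 5875.8 in KO (log2 -1.38, SE 0.10, adjusted p = 3.20e-40, or -1.17 with GC correction), and 39.2% of its 50-base words are shared with other transcripts, antisense ones included. Of 19 cholesterol genes tested none was higher and 2 were lower, 1 of them also with GC correction, and 16 of the 19 were negative (median -0.15).

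Of 17 fatty acid genes 1 was higher and 2 were lower (median -0.19). The elongase ELOVL6 went from 2220.8 and 2260.5 to 1054.9 and 915.2 (-1.18), and malic enzyme ME1 from 2526.7 and 2781.9 to 1484.9 and 1633.1 (-0.77, or -0.57 with GC correction, under the minimum). ELOVL7, an elongase of long chains, moved the other way, from 5093.2 and 5561.8 to 8435.4 and 7933.0 (0.62, or 0.83 with GC correction), and lay under the fold minimum without Ctr FM replicate 1 (0.55) or KO FM replicate 1 (0.57).

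Among 19 ATF4 targets only the cystine transporter SLC7A11 passed, at 3533.9 and 3696.2 in Ctr and 1797.3 and 1614.4 in KO (log2 -1.08). No ER folding gene passed (0 of 18, 11 with an unadjusted p under 0.05, and 0 by edgeR), with 16 of 18 negative and a median of -0.27. HSP90B1, the ER form of HSP90, was at 78421.2 and 77964.6 in Ctr and 53169.9 and 56912.1 in KO (-0.51, adjusted p = 0.00112, under the fold minimum), and HSPA5, the ER form of HSP70, was at 51811.1 and 50781.0 and at 43017.4 and 45221.9 (-0.22).

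Of 21 glycolysis and hypoxia genes 2 were higher and 2 lower (median 0.05). The hexokinases went opposite ways, HK1 from 2993.9 and 2896.7 to 4840.7 and 5023.1 (0.74) and HK2 from 4185.4 and 3925.8 to 2647.0 and 2501.1 (-0.66). PFKP, a phosphofructokinase, fell from 240.7 and 214.0 to 85.8 and 71.2 (-1.53). ALDOC, an aldolase, was at 1667.5 and 1600.1 in Ctr and at 2411.0 and 2550.4 in KO (0.60), and its value was under the fold minimum with GC correction (0.50), without Ctr FM replicate 2 (0.57) and without KO FM replicate 2 (0.56).

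Of 10 insulin and IGF genes tested 2 were higher (median -0.07). The growth factor IGF1 was at 107.1 and 100.2 in Ctr and at 320.9 and 274.0 in KO (1.52, or 1.73 with GC correction), but 82.5% of its exon bases overlap a gene on the opposite strand and the strand setting of the counting is not stated. IGFBP2, which binds IGFs outside the cell, went from 2523.4 and 2292.6 to 4564.7 and 5085.5 (1.0), with a corrected value of 0.44 under the fold minimum. Of 15 BMP and TGF-beta genes only BAMBI, a decoy receptor, passed, falling from 1351.7 and 1377.3 to 500.9 and 514.0 (-1.43; median of the list 0.11).

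Of 19 p53 targets GDF15, a stress-induced cytokine, and FDXR, the reductase that feeds electrons to CYP11A1, were higher (1.08 and 0.61; median of the list 0.24), and none was lower. GDF15 was at 78.4 and 52.5 in Ctr and at 139.0 and 135.9 in KO, and its call was lost without Ctr FM replicate 2 (adjusted p = 0.105). FDXR was at 567.6 and 533.0 in Ctr and at 776.9 and 897.6 in KO. It lost its call with GC correction (0.21), with edgeR (adjusted p = 0.0877) and without any one of the 4 libraries (adjusted p from 0.0773 to 0.32).

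Markers of other cell types were mostly scarce. Of 4 tested neuroendocrine markers 2 were higher (median 0.85), namely DDC, which makes dopamine and serotonin, from 428.5 and 456.2 to 1331.0 and 1241.8 (1.54), and SYP, from 30.9 and 20.4 to 49.4 and 57.0 (1.06). SYP lost its call with GC correction (adjusted p = 0.0793) and without any one of the 4 libraries (adjusted p from 0.0551 to 0.391), and 8 further markers, CHGA and INSM1 among them, were too scarce to be tested. Of 3 tested basal markers KRT15 was higher, at 9.9 and 13.6 in Ctr and at 31.7 and 48.2 in KO (1.75). KRT15 was too scarce for an adjusted p with TMM size factors, with no filter on low counts, and in 3 of the 4 fits with a library left out. Without KO FM replicate 2 its log2 fold change was 1.42, and it was not called. Of 8 stromal markers ACTA2, a smooth muscle actin, was lower, from 98.3 and 103.1 to 55.0 and 50.4 (-0.93), a call that ended without Ctr FM replicate 2 (adjusted p = 0.077) or KO FM replicate 2 (adjusted p = 0.0914), and 35.9% of its exon bases overlap a gene on the opposite strand. The median was 0.12 over the basal and -0.02 over the stromal markers tested, and no blood marker was abundant enough to be tested (LYZ at 28.7 and 26.3 in Ctr and 14.9 and 9.9 in KO, CD14 at 1.9 to 2.2).

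**Figure D3:**
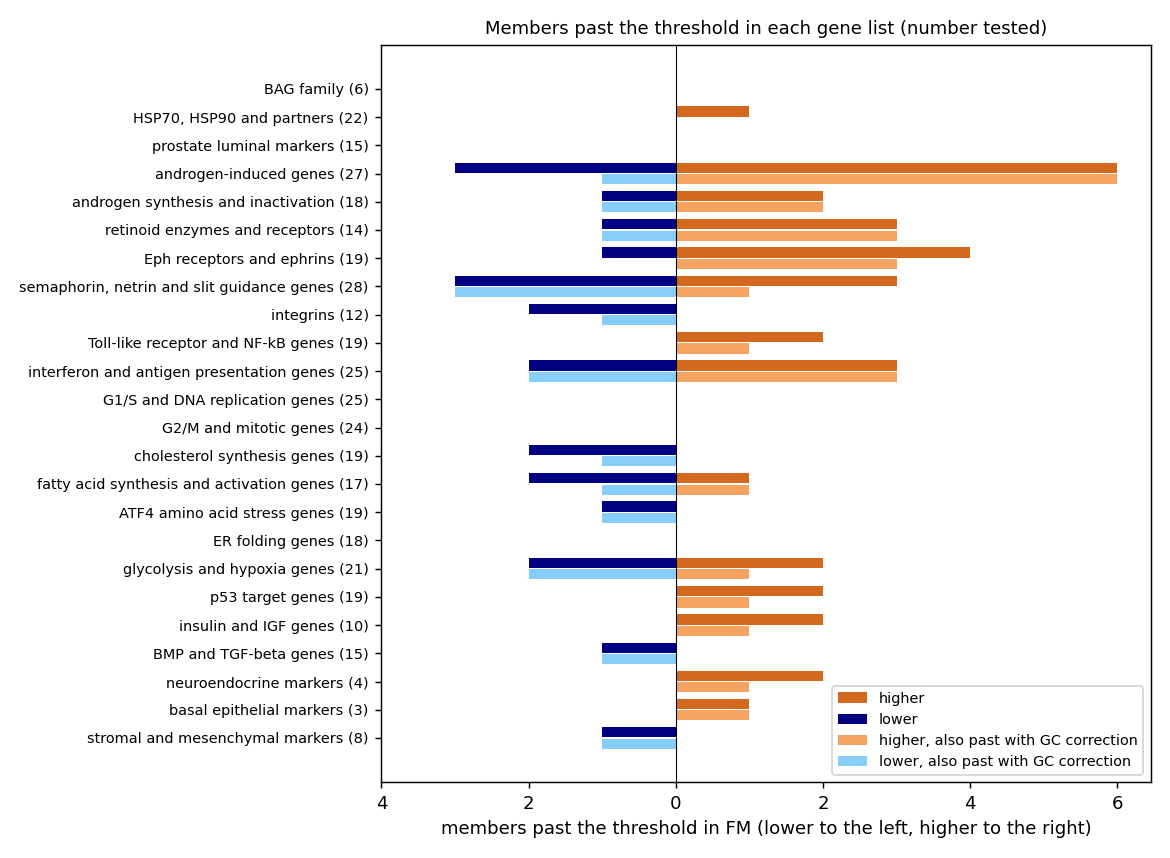
Number of members past the threshold in FM for each gene list, higher in KO to the right and lower to the left, with the number tested in brackets. Dark bars give the calls without GC correction and pale bars those also past the threshold with it. Androgen-induced genes have 6 higher and 3 lower members, of which 6 and 1 hold with the correction, and both proliferation lists and the ER folding list have no bar.

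The 4 FM libraries and the EtOH and DHT libraries share no sample, so the FM calls could be read in separate cultures of the same lines. Of the 1202 genes called in FM, 87.8% had the same direction between KO and Ctr in EtOH and 86.4% in DHT, against 63.6% and 62.6% of all genes tested in FM. The same direction and a pass of the threshold were found for 351 genes in EtOH (29.2%) and for 469 in DHT (39.0%), against 4.95% and 7.34% of all genes. The genes that also passed in FM with GC correction carried over more often, with 94.3% and 94.6% in the same direction and 45.4% and 56.1% past the threshold. They also had larger changes in FM, with a median absolute log2 fold change of 1.07 against 0.86 for all FM calls. In all 3 conditions 295 genes passed in the same direction, 194 higher and 101 lower, and 245 of these also passed in FM with GC correction. ALDH1A1, for example, was at 271.2 and 269.6 in Ctr and 17.0 and 11.3 in KO in EtOH, and its log2 fold change was -4.28 there and -3.92 in DHT. MYD88 was likewise higher by 2.64 in EtOH and 2.91 in DHT.

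Passing in FM alone is not evidence of a difference, which was tested directly. Of 672 genes that passed only in FM (55.9% of the FM calls), 82 also passed the test of a difference from EtOH or from DHT, and 231 were past the threshold in FM with GC correction. The KO effect in FM differed from that in EtOH for 180 of 12971 genes tested (1.39%), with 97 more positive (0.748%) and 83 more negative (0.64%) in FM. It differed from that in DHT for 296 (2.28%), with 170 more positive (1.31%) and 126 more negative (0.971%). With GC correction 159 (1.23%) and 272 (2.27%) genes passed, and by edgeR 78 (0.298%) and 115 (0.44%). Both tests use the same 4 FM libraries, and the EtOH test rests on the Ctr EtOH pair, whose replicates were farthest apart.

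RND3 was the gene of the 24 largest changes whose fall was seen in FM and not in the starved cells. Its normalized count was 86.6 and 90.5 in Ctr and 98.3 and 105.4 in KO in EtOH, and 85.8 and 103.9 in Ctr and 120.2 and 115.5 in KO in DHT, against 382.1 and 399.8 and 87.7 and 93.2 in FM. Only the Ctr FM libraries stood apart from the others. The log2 difference of the KO effect was -2.32 from EtOH and -2.43 from DHT, both past the threshold. RUNX1, a transcription factor of blood and epithelia, was at 241.8 and 274.3 in Ctr and 73.7 and 72.3 in KO in FM (-1.82) and at 36.2 to 41.4 in all 4 EtOH libraries, a difference of -1.88, whereas in DHT it was again lower in KO (-1.32).

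In several genes the KO effect in FM differed from that in EtOH. TMPRSS2 was at 1156.2 and 1321.0 in Ctr and 856.8 and 803.7 in KO in EtOH, a log2 fold change of -0.58 against 0.83 in FM, and the difference of 1.41 passed. In DHT the value was 0.81, and the difference from FM was 0.02, which did not pass. TRPM8 had a KO effect of -0.03 in EtOH, 1.18 in DHT and 1.19 in FM, with a difference of 1.22 between FM and EtOH that passed. For KLK3 the values were 0.31, 0.69 and 1.07, and the difference of 0.77 from EtOH passed while that of 0.39 from DHT did not. MYBPC1, a myosin-binding protein, went from 231.9 and 243.2 to 440.2 and 511.8 in FM (1.0) and was lower in KO in EtOH (-0.87), a difference of 1.87, and its difference from DHT (1.08) passed too. ALDH1A3 was higher in FM (0.90) and lower in EtOH (-0.62), a difference of 1.53.

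COLCA1, TNFAIP3, BCHE and PLPPR1 were not called in FM and were higher in KO in EtOH. COLCA1 was at 258.4 and 310.3 in Ctr and 299.4 and 335.4 in KO in FM (log2 0.16), where the libraries overlapped, and at 474.9 and 399.9 in Ctr and 2397.4 and 2543.8 in KO in EtOH (2.50). The difference was -2.34 from EtOH and -2.54 from DHT. TNFAIP3, a brake on NF-kB, was not called in FM (-0.33) and was higher in KO in EtOH (1.63), a difference of -1.96. UGT2B11, called in FM, changed sign, at -0.85 in FM and 1.69 in EtOH, where its counts were between 21.9 and 83.6. BCHE, butyrylcholinesterase, and PLPPR1, a phospholipid phosphatase-related protein, were at -0.03 and 0.16 in FM and at 1.94 and 2.40 in DHT (differences of -1.97 and -2.24).

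The other genes named by the difference tests were more positive in FM than in starved cells, except SLC6A19. TBX15, a T-box factor, and PGC, a pepsinogen, were at 0.01 and 0.54 in FM and at -1.94 and -1.02 in EtOH. ACTA2 fell in all 3 conditions and least in FM (-0.93, against -2.55 and -2.80). GDF15 was at 1.08 in FM and -0.67 in DHT, DIO3, which inactivates thyroid hormone, at 1.42 and -0.50, KRT80 at -0.05 and -1.62, and ISG20 at 0.46 and -1.10. SLC6A19, an amino acid transporter, was higher by 0.91 in FM and by 2.70 in DHT. In a fit of only the 8 FM and DHT libraries it had no adjusted p for this difference. The test of the difference was lost without any one FM library for TBX15 (adjusted p from 0.0771 to 0.173). It was lost without Ctr FM replicate 1 (adjusted p = 0.151) or KO FM replicate 2 (adjusted p = 0.174) for DIO3, without Ctr FM replicate 2 (adjusted p = 0.324) or KO FM replicate 2 (adjusted p = 0.352) for ISG20, and without Ctr FM replicate 2 (adjusted p = 0.33), KO FM replicate 1 (adjusted p = 0.0707) or KO FM replicate 2 (adjusted p = 0.16) for SLC6A19.

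**Figure D4:**
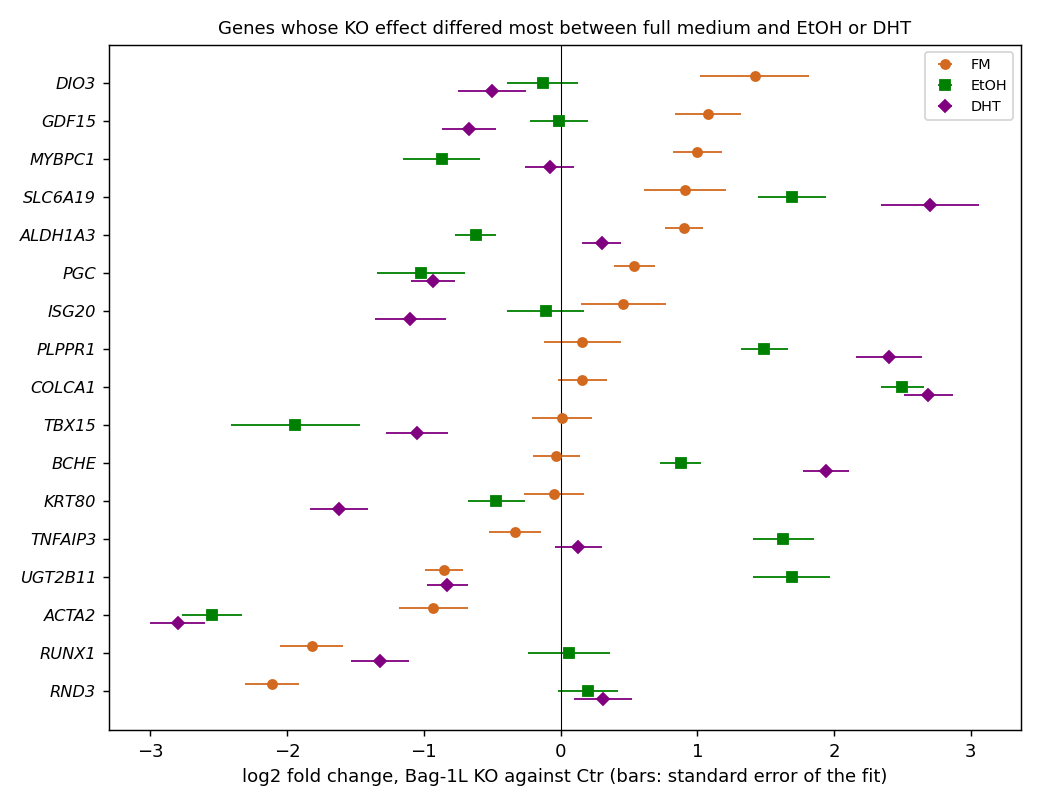
KO against Ctr log2 fold change in FM, EtOH and DHT for the genes with the largest differences between FM and the starved conditions. Points are the fitted values and bars their standard errors, each from 2 KO and 2 Ctr libraries. RND3 at the bottom is at -2.11 in FM and near 0 in the starved cells, whereas COLCA1 is at 0.16 in FM and at 2.50 and 2.69 in EtOH and DHT.

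Expression also differed by chromosome. The 521 tested genes on chromosome 8 had a median log2 fold change of 0.26 in FM, or 0.29 with GC correction, against -0.02 over all other genes with and without it. The chromosome had 74 genes higher in KO (14.2%) and 6 lower (1.15%), against 5.41% and 2.6% overall. With GC correction the medians of the other chromosomes lay between -0.07 and 0.07. In windows of 10 Mb all 13 windows on chromosome 8 had a median above 0, from 0.19 to 0.42 with GC correction. Of 255 windows in the genome 13 had a corrected median of at least 0.2, and 12 of these were on chromosome 8. The remaining one was on chromosome 13 between 20 and 30 Mb (0.31, with 49 genes). On the other side, 2 windows had a corrected median of -0.2 or below, on chromosome 1 between 70 and 80 Mb (-0.21, with 29 genes) and on chromosome 12 between 130 and 140 Mb (-0.25, with 27 genes). The 5 windows of chromosome 12 from 90 to 140 Mb had corrected medians from -0.25 to -0.14 in FM, and medians from -0.21 to -0.13 in EtOH and from -0.24 to -0.17 in DHT. The same chromosome 8 windows had medians from 0.15 to 0.36 in EtOH and from 0.11 to 0.41 in DHT, so the shift was present in all 3 pairs of cultures. Of the genes named above, EBF2 (higher), TPD52 (higher), TP53INP1 (higher, called only with GC correction) and RALYL (lower) lie on chromosome 8.

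**Figure D5:**
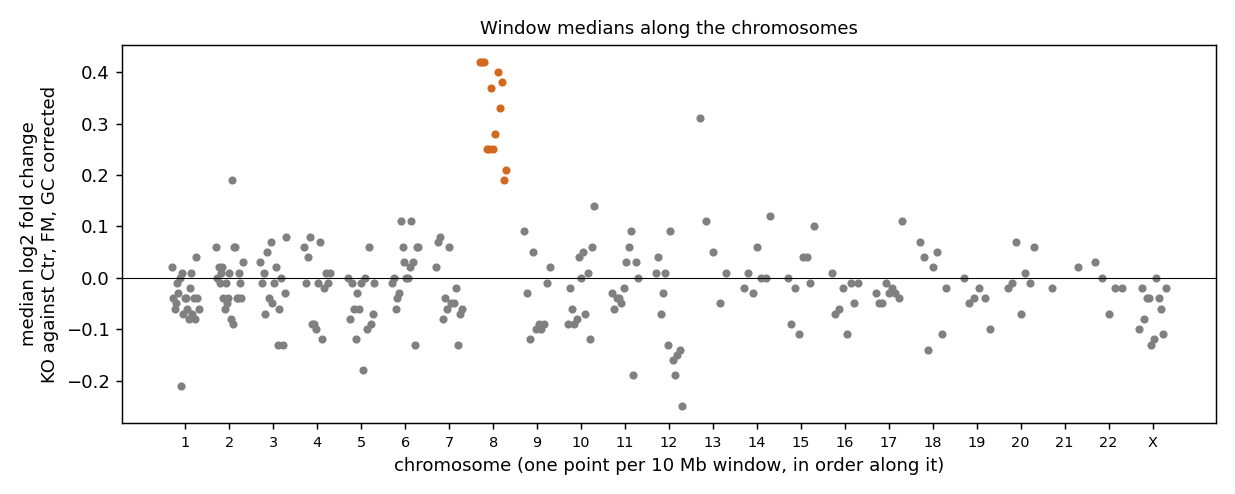
Median GC-corrected log2 fold change between KO and Ctr in FM for windows of 10 Mb with at least 20 tested genes, ordered along each chromosome on the horizontal axis. The chromosome 8 points, in orange, all lie above 0, from 0.19 to 0.42, and the single grey point above 0.3 is a window of chromosome 13.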

How the data were processed

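Poly(A) RNA-seq of 12 LNCaP libraries was used, 2 per group, and the labels gave each group. Per the paper's methods the authors prepared libraries with a TruSeq stranded kit, and the processing notes name CASAVA 1.7, TopHat2 2.0.11 and HTSeq 0.5.3p3 on GRCh37. The Ensembl release and the strand setting of the counting are not given in the sources used here. The authors deposited raw read counts per Ensembl gene for 63677 identifiers, one file per library, without normalization. HTSeq leaves out reads that fit several places or genes, so paralogs and overlapping genes are counted low, and its tally rows stayed out of the library sizes and tests (as a share, ambiguous reads came to 6.90% to 7.28% in FM, and reads without a feature to 3.62% to 3.78%).

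From the deposited counts, genes with at least 10 counts summed over the 12 libraries (26156 genes) were fitted with DESeq2 1.42.0 (R 4.3.3) in one model with a coefficient per group, as the study used DESeq2, with Wald tests, unshrunken fold changes and Benjamini-Hochberg adjustment. A call needed an adjusted p of at most 0.05 and a fold change of at least 1.5, and genes without an adjusted p were not called. Differences of the KO effect between conditions were contrasts of the same model. Positions, transcript lengths, GC content and sequences came from GENCODE v44 lifted to GRCh37, which held 55665 of the identifiers, and 96.7% of the genes tested in FM had a GC value. The GC correction subtracted a lowess curve (span 0.3) of each library's deviation on GC content. Shared sequence was counted as 50-base words of the canonical transcript found in another gene's. The fit was tested on simulated data (25267 genes, 100 changed 2-fold and 100 changed 4-fold), where DESeq2 recovered 82% and 100% with 7 false calls. The changed genes were drawn from the more abundant ones. No trend with GC content was simulated, so these figures do not cover calls that follow such a trend.

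The comparison, the gene lists and the rule for named genes were chosen with earlier results of these data known. The rule took BAG1, the 12 largest rises and 12 largest falls that passed, averaged 100 normalized counts or more in FM and did not overlap between groups, up to 3 rises and 3 falls past the threshold in each of 25 lists (otherwise the 2 most abundant members; some members are not reported here), and the 5 largest differences of each sign between FM and EtOH and between FM and DHT. Alternatives were edgeR 4.0.16, TMM size factors, other filters on low counts and fold changes, the FM libraries alone, the replicate number as a block, GC correction, thinning to equal totals, and each FM library left out. At these depths (22474837 to 26510205 counts in FM) counting error is small for the abundant genes named. It is not small for scarce ones such as KRT15, SYP, LYZ and CD14. Intervals between libraries rest on 2 per group.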

Additional observations from a re-analysis of the deposited data

Results flagged for a closer look

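The results listed here are genes whose KO effect in FM passed a test of its difference from the effect in EtOH or DHT, given as the FM effect minus the other on the log2 scale. Each rests on 2 libraries per group, and both tests use the same FM libraries. All values are without GC correction, and corrected differences are not given here for single genes. The correlation of the KO effect with GC content was 0.5 in FM against 0.09 in EtOH and 0.11 in DHT. A part of that gradient in the listed differences therefore remains possible. More positive in FM than in both EtOH and DHT were TBX15 (1.95 and 1.06), MYBPC1 (1.87 and 1.08), ACTA2 (1.62 and 1.87), PGC (1.56 and 1.47) and GDF15 (1.09 and 1.75). More negative in FM than in both were RND3 (-2.32 and -2.43), COLCA1 (-2.34 and -2.54), PLPPR1 (-1.32 and -2.24), BCHE (-0.91 and -1.97) and EPHA3 (-0.84 and -0.85). The EPHA3 rise itself was present in all 3 conditions.

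From EtOH alone the KO effect was more positive in FM for ALDH1A3 (1.53), NHSL1 (1.5), TMPRSS2 (1.41), TRPM8 (1.22), RDH16 (1.05), CACNA1H (1.01), IGFBP2 (0.91), KLK3 (0.77) and ELOVL7 (0.65). It was more negative for UGT2B11 (-2.54), TNFAIP3 (-1.96), RUNX1 (-1.88), RALYL (-1.10), NRP1 (-0.88) and HMGCS1 (-0.79). From DHT alone it was more positive in FM for DIO3 (1.92), SYP (1.58), KRT80 (1.57), ISG20 (1.57), HSPB1 (1.25), KRT8 (1.20), MAF (0.81), HSP90B1 (0.80) and HSPA5 (0.78), and more negative for SLC6A19 (-1.79). The FM calls of HSPB1, SYP and IGFBP2 ended with GC correction, at log2 fold changes of 0.32, 0.89 and 0.44. Those of ALDH1A3, NHSL1, TMPRSS2, TRPM8, RDH16, CACNA1H, KLK3, ELOVL7 and MAF were among the calls that held with it.

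Outside the gene counts, the share of reads that HTSeq set aside because they overlapped several genes was higher in KO FM (7.17% and 7.28%, mean 7.22%) than in Ctr FM (6.94% and 6.90%).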

How the results depend on the processing

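The number of genes past the threshold in FM (1202) moved with GC correction to 785, with the replicate block and GC correction together to 743, without a fold change minimum to 2776, with a 2-fold minimum to 449, and with edgeR on the 4 FM libraries alone, an alternative chosen after seeing the data, to 2211. Leaving out each FM library gave 519 to 900, with 519 without Ctr FM replicate 2 and 557 without KO FM replicate 2, where an arm had 1 library that is assumed to vary like the others. TMM size factors gave 1202 calls, 860 higher and 342 lower, or 71.5% higher in KO against 67.6%. The genes with a different KO effect from EtOH (180) and from DHT (296) numbered 78 and 115 by edgeR, 281 and 508 with the replicate block, 76 and 92 with a 2-fold minimum, 49 to 80 and 53 to 112 with an FM library left out, and 934 for DHT with only the 8 libraries of those conditions. BAG1 missed the fold minimum under every alternative, between -0.49 and -0.38, while its adjusted p ranged from 2.00e-08 to 0.318.

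Replicate numbers are shared by the groups, but the replicate differences of Ctr FM and KO FM had a correlation of -0.20 across genes, so the numbers were not taken as pairs. The block gave 1200 calls in FM and the crossed pairing, added after seeing the data, 1144.

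The share of FM calls with the same direction in EtOH (87.8%) became 92.6% with GC correction, 92.3% with the replicate block added to it, 84.6% without a fold minimum, 93.8% with a 2-fold minimum and 87.8% to 94.6% with a library left out. The share past the threshold there (29.2%) became 43.9%, 43.7%, 34.3% with a 2-fold minimum and 29.0% to 44.3%. In DHT the share with the same direction (86.4%) became 89.3% by edgeR, 93.2% with GC correction, 92.3% with the block added, 83.5% without a fold minimum, 92.0% with a 2-fold minimum and 88.4% to 95.2% with a library left out, and the share past the threshold (39.0%) became 53.4%, 52.2%, 46.5% with a 2-fold minimum and 39.4% to 56.3%.

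The median FM change of genes raised by DHT (-0.03) was -0.01 by edgeR and -0.05 to -0.01 with a library left out. That of genes lowered by DHT (0.07) was 0.10 by edgeR, with TMM and with at least 10 counts in every FM library, 0.00 without a fold minimum, 0.13 with a 2-fold minimum and 0.04 to 0.08 with a library left out. The correlation with GC content (0.50) became -0.01 with GC correction, as that correction is built to do. The chromosome 8 median (0.26) was 0.24 over genes with a mean of at least 100 and 0.29 with GC correction, and the windows at least 0.2 from 0 numbered 55, or 15 with GC correction.

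Of 1508 values of the 102 named comparisons under the alternatives, 1374 kept their direction and their side of the threshold, 125 lost a call, 3 gained one and 6 changed sign. The changes of sign were under the 2 GC settings, in genes not called, for BAG6 (-0.18 in both), RRM2 (0.01, and 0.00 with the block) and CCNB1 (0.04 in both). The causes were not tested.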
